A study of Mus musculus with 6 samples.

Results

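The 10 genes described here belong to the NF-kappa B system and were followed in hippocampal astrocytes after microglial ablation. They are the 5 genes of the Rel subunits (*Nfkb1*, *Nfkb2*, *Rela*, *Relb* and *Rel*), 3 genes of inhibitor-like proteins (*Nfkbia*, *Nfkbiz* and *Bcl3*), the ubiquitin-editing enzyme gene *Tnfaip3* and the adhesion molecule gene *Icam1*. They were taken by name from a table of CPM (reads of a gene scaled to library size) and a table of TPM (scaled to transcript length as well), where all 10 were found among 24421 genes. The mice were *Siglech*dtr/dtr on the C57BL/6 strain, in which the diphtheria toxin (DT) receptor sits in the *Siglech* locus that microglia use. Adult mice were given PBS, or DT at 50 μg/kg, 2 days before sampling. CD11b-positive cells were first removed with magnetic beads, and astrocytes were then bound to beads against the surface antigen ACSA-2. There were 3 libraries per group from independent experiments, each a pool of 2 mice. Every mouse carried the receptor, and no DT-injected mice without it are among the libraries, so DT itself and the loss of microglia cannot be told apart.

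NF-kappa B proteins are paired from 5 subunits and wait in the cytoplasm bound to inhibitors. When receptors for TNF, interleukin-1 or microbial products are engaged, the IKK kinase complex marks the inhibitor IκBα for destruction, and pairs of RelA and p50 enter the nucleus. A slower branch uses the kinase NIK to process the *Nfkb2* product, which then pairs with RelB. The pathway is known for switching on its own brakes, among them IκBα and A20, and in reactive astrocytes it is known for driving chemokines and adhesion molecules.

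The libraries held 21704891 to 32933975 reads in genes, recovered from the steps of the CPM values. The astrocyte label was borne out by the summed level of its 14 markers, 65800 to 70880 CPM after PBS and 68390 to 76250 CPM after DT. *Slc1a2* made up much of it, with means of 36930 and 38290 CPM. Neuron markers summed to 979.8 to 1030 CPM after PBS and to 861.5 to 1081 CPM after DT. Most of that sum was *Map2*, with means of 770.6 and 716.9 CPM. Pericyte and mural markers summed to 798.8 to 1227 and to 950.3 to 1247 CPM. *Gfap*, the filament gene of reactive astrocytes, rose from 1017 to 3859 CPM. Of 15 microglia markers, 9 fell, and *Siglech*, at a mean of 1.68 CPM after PBS, was left without a single read after DT. The paper reports that microglial Siglec-H is considerably reduced in homozygous mice of this line. Markers of lymphocytes and neutrophils summed to 1.52 to 4.27 CPM in all libraries, and 8 of the 11, among them *Cd3e* and *S100a8*, had no read anywhere.

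Sequences around the starts of the genes are given first, since several of the 10 are textbook targets of the factor they encode or restrain. Promoter windows of 300 bases, from 250 before to 50 after a start, were matched in RefSeq (GRCm38.p6) for 7 of the 10 genes. Those of *Nfkb1*, *Relb* and *Nfkbiz* were not analysed here. Capitals mark the letters that match a kappa B motif, with 10 bases shown on each side.
Nfkb2: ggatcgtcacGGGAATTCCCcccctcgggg
Nfkb2, downstream start: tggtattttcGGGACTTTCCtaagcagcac
Rel: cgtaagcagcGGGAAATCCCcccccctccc
Nfkbia: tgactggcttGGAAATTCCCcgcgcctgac
Tnfaip3: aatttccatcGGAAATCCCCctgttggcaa
Bcl3: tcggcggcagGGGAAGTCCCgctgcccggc
Icam1: acttcagtttGGAAATTCCtagatcgcag

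The stretches lie at chr19:46304688-46304717 and chr19:46305695-46305724 for *Nfkb2*, both on the plus strand. That of *Rel* lies at chr11:23771042-23771071 on the minus strand, and that of *Nfkbia* at chr12:55492657-55492686 on the minus strand. The *Tnfaip3* stretch lies at chr10:19015403-19015432 and the *Bcl3* stretch at chr7:19822734-19822763, both on the minus strand. The *Icam1* stretch lies at chr9:21015777-21015805 on the plus strand. Both strands were searched. The broad decamer GGGNNNNNCC matched in all 7 genes and also in 53.5% of 27025 genes with a window. The narrower kappa B consensus, a subset of the decamer with a purine and pyrimidines at set places, matched in 5 of the 7 genes and in 9.55% of all genes. *Rela* and *Icam1* had no match to that consensus in these windows. The 9 letters shown for *Icam1*, GGAAATTCC, were searched after the promoters had been read. They or their reverse complement also occurred in *Nfkbia*, inside the decamer shown, and in *Tnfaip3*, and in 0.381% of all genes. These matches describe letters and do not show binding.

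*Icam1* was the single gene of the 10 that rose after DT, and its level about doubled. Each of the other 9 missed the threshold of an adjusted p of 0.05. Even so, 9 of the 10 had a fold change above 0, where 48.7% of the 15137 genes tested did. In 8 of the 10 the groups did not overlap and DT was higher, which was so for 8.75% of the genes tested, and in 0 of the 10 was DT the lower of separate groups (7.57% of the genes tested). The exceptions were *Nfkb1* and *Tnfaip3*. All 10 passed the filter of a mean of at least 0.5 CPM. Their median log2 fold change was 0.33, beside -0.0052 over the genes tested. Every fold change here, given with its standard error (SE), is on the scale of log2(CPM + 0.1), DT minus PBS, which understates the change of genes with few reads.

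With limma and adjustment over all genes tested, 1 of the 10 was called higher, where 0.555% of all genes were. At an unadjusted p under 0.05, 8 of the 10 were higher, where 5.91% of all genes were. Of the 10, 0 were called lower with limma, where 0.159% of all genes were, and 0 were lower at an unadjusted p under 0.05, where 4.51% were. Count tests were also run on the recovered reads. The quasi-likelihood test of edgeR called 1 higher, *Icam1*, and 0 lower, where 0.575% and 0.159% of all genes were. The exact test of edgeR called *Icam1*, *Bcl3* and *Relb* higher and 0 lower, where 1.26% and 0.476% of all genes were. DESeq2 called the same 3 higher and 0 lower, where 1.5% and 0.647% of all genes were. The p-values measure the spread between these pools of mice.

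**Figure D1:**
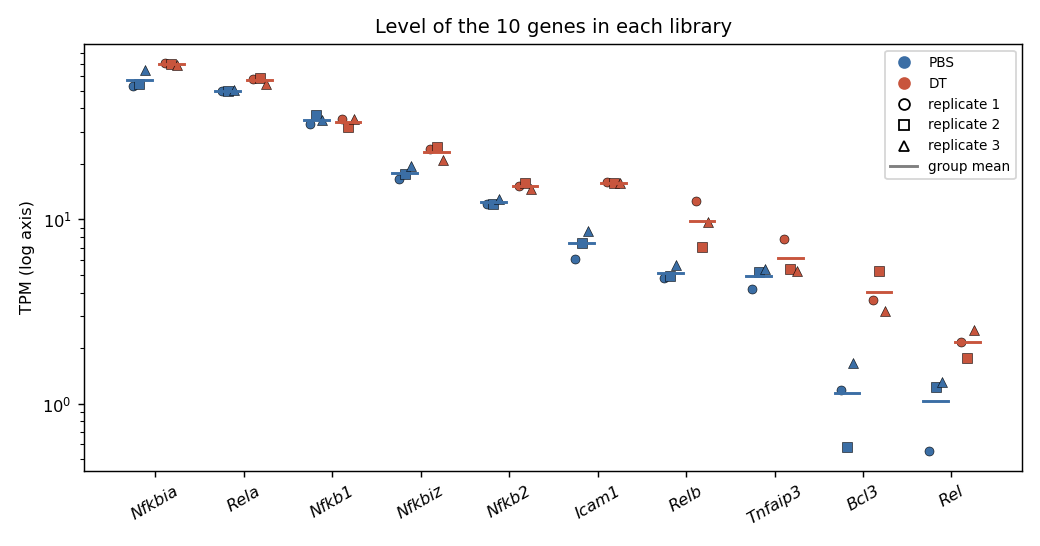
Level of each of the 10 genes in TPM (log axis) in 3 PBS libraries (blue) and 3 DT libraries (red), with a symbol for each replicate and the group mean as a line; genes are ordered by their mean after PBS. All DT points lie above all PBS points in 8 genes, and the groups overlap in *Nfkb1* and *Tnfaip3*.

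In TPM, which is per length and so can be compared between genes, *Nfkbia* stood highest after PBS at 57.5 ± 6.64 TPM (SD, n = 3). *Rela* followed at 50.0 ± 0.567 TPM and *Nfkb1* at 34.8 ± 2.1 TPM. *Bcl3* and *Rel* stood lowest, at 1.141 ± 0.538 and 1.034 ± 0.421 TPM. Thus the inhibitor and the subunits of the classical pair were the abundant transcripts, and c-Rel, known best from lymphocytes and myeloid cells, was scarce. Neighbours in this order had separate ranges over the PBS libraries, apart from *Relb* with *Tnfaip3* and *Bcl3* with *Rel*. After DT the order was kept except that *Icam1* moved ahead of *Nfkb2*, and *Bcl3* and *Rel* no longer overlapped.

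Of the subunits, *Rela* (ENSMUSG00000024927.8, chromosome 19 of mm10, 5637483 to 5648130, plus strand) encodes the main activating subunit. Its level was 49.8, 49.6 and 50.7 TPM in the PBS libraries and 58.0, 58.7 and 54.5 TPM in the DT libraries. The PBS libraries lay close together and all DT libraries lay above them. The log2 change of *Rela* was 0.18 ± 0.07 (SE; limma, adjusted p = 0.426), with a 95% interval from 0.02 to 0.33.

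*Nfkb1* (ENSMUSG00000028163.17, chromosome 3, 135584655 to 135691547, minus strand) encodes p105, the precursor of the partner p50. It was at 32.8, 37.0 and 34.7 TPM after PBS and at 34.9, 31.8 and 35.1 TPM after DT. The groups were interleaved, and it was the one gene of the 10 with a fold change below 0. The log2 fold change of *Nfkb1* was -0.05 ± 0.08 (SE; limma, adjusted p = 0.872). Its interval spans folds of 0.854 to 1.09. Without DT replicate 2 the log2 fold change was 0.0096, so no direction can be given for *Nfkb1*.

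*Nfkb2* (ENSMUSG00000025225.15, chromosome 19, 46304320 to 46312385, plus strand) encodes p100, the precursor of p52 in the slower branch. Its 3 PBS libraries held 12.1, 12.1 and 12.9 TPM and its 3 DT libraries 15.3, 15.7 and 14.5 TPM. Both groups were tight and did not overlap. The log2 change of *Nfkb2* was 0.27 ± 0.10 (SE; limma, adjusted p = 0.399). *Psd* overlaps *Nfkb2* on the other strand, and the authors mapped reads with strand information.

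*Relb* (ENSMUSG00000002983.17, chromosome 7, 19606217 to 19629438, minus strand) encodes the partner of p52. Its level was 4.78, 4.93 and 5.62 TPM after PBS and 12.6, 7.08 and 9.65 TPM after DT, from 80 to 221 reads per library. All DT libraries were above all PBS libraries, but they spread widely, with DT replicate 1 highest. *Relb* had a log2 change of 0.87 ± 0.23 (SE; limma, adjusted p = 0.210), with a 95% interval from 0.35 to 1.40. It was called with edgeR's exact test (adjusted p = 0.0321) and with DESeq2 (adjusted p = 0.0265), and adjusted values of the 17 alternatives ran from 0.0265 to 0.439.

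*Rel* (ENSMUSG00000020275.9, chromosome 11, 23736847 to 23770970, minus strand), which encodes c-Rel, was counted with 11, 36 and 26 reads after PBS and 45, 47 and 51 reads after DT. These counts correspond to 0.550, 1.24 and 1.32 TPM and to 2.16, 1.77 and 2.52 TPM. PBS replicate 1 was the lowest library, and the groups did not overlap. *Rel* had a log2 change of 1.02 ± 0.36 (SE; limma, adjusted p = 0.381), and without PBS replicate 1 it was 0.68.

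Together the subunit transcripts summed to 100, 105 and 105 TPM after PBS and to 123.0, 115 and 116 TPM after DT. *Rela* made up 48.4% of the sum in both groups, while *Nfkb1* made up 33.7% after PBS and 28.7% after DT. The share of *Relb* was 4.94% ± 0.347 (SD, n = 3) after PBS and 8.24% ± 2.06 after DT. *Nfkb2* made up 11.98% and 12.85%, and *Rel* 0.993% and 1.82%. The shares of the 2 groups did not overlap for any of the subunits but *Rela* (exact permutation test, two-sided p = 0.1 for each, the smallest that 3 against 3 allow; for *Rela*, p = 1). Per *Nfkb2* transcript there were 0.412 ± 0.0198 *Relb* transcripts after PBS and 0.647 ± 0.188 after DT, in TPM. These shares and ratios were chosen after the levels had been seen.

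**Figure D2:**
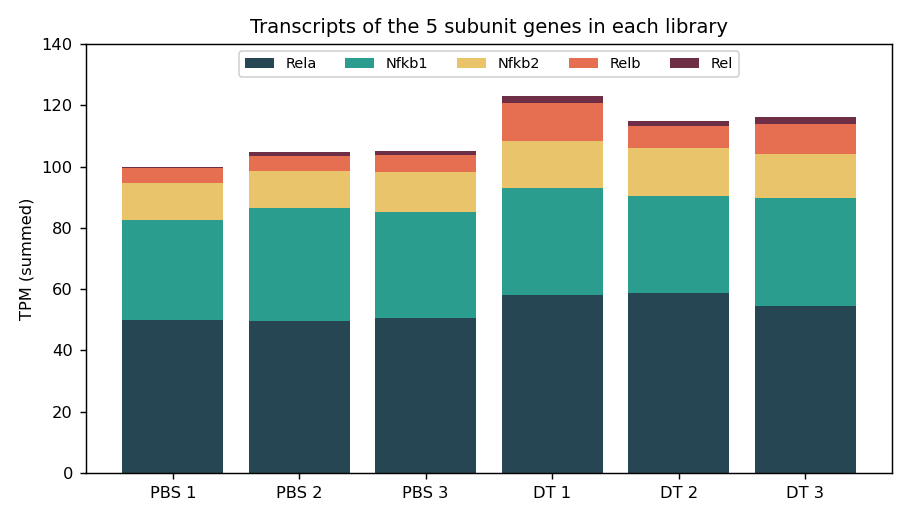
Summed TPM of the 5 subunit genes in each of the 6 libraries, stacked by gene. The sums lie between 100 and 105 TPM after PBS and between 115 and 123.0 TPM after DT, and *Relb* takes 8.24% of the sum after DT on average and 4.94% after PBS.

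Inhibitors and inhibitor-like proteins came next. *Nfkbia* (ENSMUSG00000021025.8, chromosome 12, 55489410 to 55492647, minus strand) encodes IκBα, which holds RelA pairs in the cytoplasm and is resynthesized once they act. It was at 52.8, 54.5 and 65.1 TPM in the PBS libraries and at 70.3, 70.1 and 68.5 TPM in the DT libraries. PBS replicate 3 came close to the DT libraries without reaching them. *Nfkbia* had a log2 change of 0.27 ± 0.09 (SE; limma, adjusted p = 0.380), with a 95% interval from 0.05 to 0.49. Per *Rela* transcript there were 1.15 ± 0.12 *Nfkbia* transcripts after PBS and 1.22 ± 0.0329 after DT, and these ratios overlapped (exact permutation test, two-sided p = 0.4).

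*Nfkbiz* (ENSMUSG00000035356.17, chromosome 16, 55811375 to 55838899, minus strand) encodes IκBζ, a nuclear cofactor for a subset of target genes. Its level was 16.5, 17.7 and 19.4 TPM after PBS and 24.2, 24.7 and 21.0 TPM after DT. The lowest DT library stood above the highest PBS library. The log2 change of *Nfkbiz* was 0.37 ± 0.10 (SE; limma, adjusted p = 0.211), with a 95% interval from 0.15 to 0.60.

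*Bcl3* (ENSMUSG00000053175.17, chromosome 7, 19808462 to 19822770, minus strand) encodes a nuclear partner of p50 and p52. It was counted with 17, 12 and 23 reads after PBS and with 54, 99 and 45 reads after DT. In TPM these were 1.19, 0.580 and 1.65 after PBS and 3.66, 5.22 and 3.16 after DT. Its mean CPM after DT was 3.42 times that after PBS, the largest fold among the 10 genes, but the coefficient of variation of its CPM over the PBS libraries was 47.7%. *Bcl3* had a log2 change of 1.72 ± 0.39 (SE; limma, adjusted p = 0.140), with a 95% interval from 0.82 to 2.62. edgeR's exact test (adjusted p = 0.00361) and DESeq2 (adjusted p = 0.00913) called it, and the adjusted values of the alternatives ran from 0.00361 to 0.440. The antisense genes *Gm16175* and *Gm16174* overlap *Bcl3*. It lies 179 kb from *Relb*, with *Apoe* among the 10 protein-coding genes between them.

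*Tnfaip3* (ENSMUSG00000019850.11, chromosome 10, 19000910 to 19015657, minus strand) encodes A20, which trims the ubiquitin chains that carry the signal to IKK. The PBS libraries held 4.203, 5.18 and 5.39 TPM and the DT libraries 7.78, 5.36 and 5.25 TPM. Only DT replicate 1 lay above the PBS libraries. The log2 fold change of *Tnfaip3* was 0.28 ± 0.19 (SE; limma, adjusted p = 0.663) and 0.08 without DT replicate 1. DT replicate 1 was also the library with the most *Relb*. Its summed level of ependymal and choroid plexus markers was the highest, 1731 CPM, where the other DT libraries had 1225 and 920.9 CPM. PBS libraries had from 241.4 to 1072 CPM. Much of that sum was the choroid plexus gene *Ttr*, at 1416, 917 and 489 CPM in DT replicates 1, 2 and 3. The ependymal gene *Foxj1* ran the other way, at 94.1, 105 and 161 CPM. Both genes were named after their values had been seen. The part of these cells in the values of *Tnfaip3* and *Relb* was not tested.

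*Icam1* (ENSMUSG00000037405.8, chromosome 9, 21015985 to 21028817, plus strand) encodes the surface ligand of the leukocyte integrins LFA-1 and Mac-1. It was at 6.10, 7.46 and 8.68 TPM in the PBS libraries and at 15.9, 15.7 and 15.7 TPM in the DT libraries, from 117 to 409 reads per library. In CPM the coefficient of variation was 16.7% over the PBS libraries and 2.81% over the DT libraries, and the groups were far apart. *Icam1* rose with a log2 fold change of 1.08 ± 0.15 (SE; limma, adjusted p = 0.0174) and a 95% interval of the fold from 1.67 to 2.67. The groups did not overlap (two-sided p = 0.1 by exact permutation of the TPM, as small as the design permits). The call was lost without the variance trend (adjusted p = 0.0582) and without PBS replicate 2 (adjusted p = 0.0624), DT replicate 1 (0.0847), DT replicate 2 (0.0961) or DT replicate 3 (0.0605), while the log2 fold change without a library stayed between 0.96 and 1.20. The antisense gene *Gm47079* overlaps *Icam1*.

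**Figure D3:**
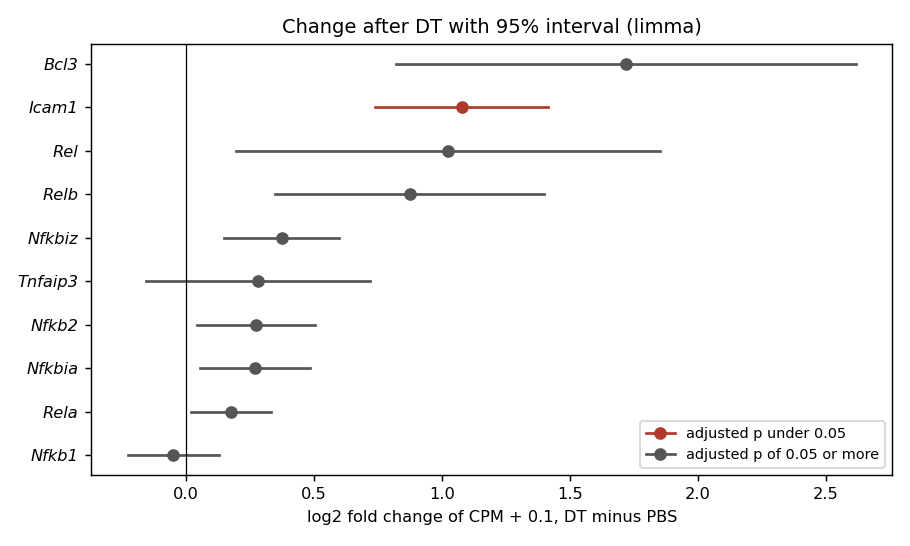
Log2 fold change of CPM + 0.1, DT minus PBS, of the 10 genes (points) with its 95% interval from limma (lines). *Icam1*, in red, is the gene with an adjusted p under 0.05; the intervals of *Nfkb1* and *Tnfaip3* include 0, and that of *Bcl3* is the widest, from 0.82 to 2.62.

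A ratio of TPM to CPM follows the transcript length that the quantification assigned to a gene. It ranged from a mean of 0.660 after PBS for *Tnfaip3*, whose exons cover 7226 bp, to 1.85 for *Nfkbia*, whose exons cover 1610 bp. The length covered by exons did not order the ratios. *Nfkb1*, with 12061 bp, had 0.711 after PBS, and *Rel*, with 7466 bp, had 1.11. Within a gene the ratio hardly varied, for example from 1.13 to 1.18 over the 6 libraries for *Icam1*. On TPM *Icam1* kept its call (log2 fold change 1.09, adjusted p = 0.0335 from limma). Since the ratio hardly varied, TPM repeats the same reads, and the kept call is not a separate check.

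Genes most like *Icam1* were sought by the root mean square difference of their log2(CPM + 0.1) profiles over the 6 libraries, each centred on its PBS mean. Among 13364 genes compared, the nearest was *Hgf*, which encodes hepatocyte growth factor, at a difference of 0.131. *Slc7a8*, an amino acid transporter gene, followed at 0.133, the transcription factor gene *Creb5* at 0.153, the inositol transporter gene *Slc5a3* at 0.154 and the cytokine receptor gene *Il13ra1* at 0.155. *Hgf*, *Slc5a3* and *Il13ra1* rose after DT, with log2 fold changes of 1.11 for the first and for the second of these and of 0.9996 for the third. *Slc7a8* (0.95, adjusted p = 0.105 from limma) and *Creb5* (0.89, adjusted p = 0.139) did not pass the threshold.

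Other genes of the pathway were listed by role from general knowledge, 101 besides the 10, of which 92 were tested. Of these, 6 rose and 0 fell with limma, with 22 higher and 2 lower at an unadjusted p under 0.05, and 26 had every DT library above every PBS library. Their median log2 fold change was 0.08. The 6 were the receptors *Tnfrsf1a* and *Il1r1* and the targets *C3*, *Plau*, *Ccl2* and *Cxcl1*. The other lists held no call with limma, while edgeR's exact test and DESeq2 also called genes in them, given with each list.

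Of 11 receptors, 2 rose. *Il1r1*, the receptor of interleukin-1, went from 11.3 to 26.6 CPM (log2 fold change 1.24, adjusted p = 0.00521 from limma) and *Tnfrsf1a*, the main TNF receptor, from 28.8 to 58.7 CPM (1.04, adjusted p = 0.00612). Among 27 targets tested, *Icam1* included, 5 rose and 0 fell, with 12 higher and 1 lower at an unadjusted p under 0.05. The 12 include *Ccl2*, *Ccl7*, *Cxcl2* and *Tnf*, which passed the filter only through DT. The complement gene *C3* went from 13.8 to 35.2 CPM (log2 fold change 1.34) and the protease gene *Plau* from 3.62 to 11.2 CPM (1.58). The chemokine genes *Ccl2* and *Cxcl1* were scarcer, at 0.488 and 0.616 CPM after PBS and 3.52 and 2.91 CPM after DT. *Vcam1*, another adhesion molecule gene, was at 409.2 and 398.5 CPM (log2 fold change -0.04, adjusted p = 0.906 from limma). *Csf1*, the gene of a macrophage growth factor, was at 56.05 and 116.3 CPM (1.12, adjusted p = 0.114 from limma) and was called by edgeR's exact test but not by DESeq2. The 2 genes were named after their values had been seen. *Il6* and *Ccl20* had no read in any library.

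For the kinases that carry the signal, the median log2 fold change over 13 genes was -0.02. *Chuk*, *Ikbkb* and *Ikbkg*, which encode the IKK complex, had log2 fold changes of 0.02, -0.06 and -0.02. None of the 13 passed the threshold with limma, 1 was higher at an unadjusted p under 0.05, and edgeR's exact test and DESeq2 called that one. It was *Map3k14*, which encodes the kinase NIK of the slower branch, at 21.9 CPM after PBS and 32.4 CPM after DT (log2 fold change 0.56, adjusted p = 0.0529 from limma), and limma called it without DT replicate 3. Of the receptors known to feed that branch, *Ltbr* (log2 fold change 0.42, adjusted p = 0.111) and *Tnfrsf12a* (1.81, adjusted p = 0.0751), missed the threshold with limma and passed it with edgeR's exact test and DESeq2. *Cd40* (0.24, adjusted p = 0.908 from limma) and *Tnfrsf11a* (0.63, adjusted p = 0.555), receptors of the same branch, passed it with none of these tools. These 5 genes were named after their values had been seen.

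Among 22 adaptors and ubiquitin ligases, 0 were called with limma, 2 were higher and 1 was lower at an unadjusted p under 0.05, and the lower one, *Irak2*, was called by edgeR's exact test and DESeq2. *Irak2*, an adaptor of interleukin-1 and Toll-like receptors named after its value had been seen, was at 89.3 CPM after PBS and 70.9 CPM after DT (log2 fold change -0.33, adjusted p = 0.0815 from limma). The 17 genes of ubiquitin editing and feedback had a median of 0.06 on the log2 scale, with 0 called by limma, 2 higher at an unadjusted p under 0.05 and 1 called higher by edgeR's exact test and DESeq2. This one was *Nlrc5*, named after its value had been seen, at 2.99 CPM after PBS and 5.79 CPM after DT (log2 fold change 0.96, adjusted p = 0.172 from limma).

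**Figure D4:**
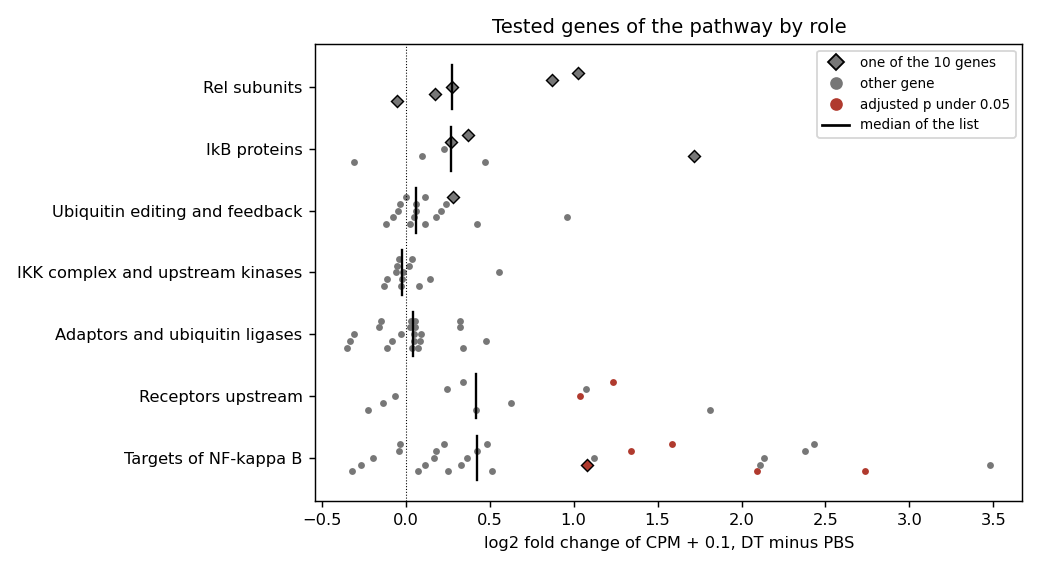
Log2 fold change of CPM + 0.1, DT minus PBS, of the tested genes of the pathway in 7 lists by role; diamonds are the 10 genes, red marks an adjusted p under 0.05 and the black bar is the median of the list. Red points lie in the lists of receptors and targets, whose medians are 0.42 and 0.43, and the median of the kinases is -0.02.

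Levels of other cells moved with the treatment as well. Markers of border-associated macrophages and monocytes, 14 listed and 10 tested, summed to 43.95 to 64.86 CPM after PBS and to 99.88 to 114.9 CPM after DT. Of these markers 3 rose, *Mrc1*, *Lyve1* and *F13a1*. Of the 10 tested, 7 had fold changes above 0 and 3 below. Those below were *Ly6c2* (log2 fold change -0.31, adjusted p = 0.816 from limma), *Cd74* (-0.08) and *H2-Ab1* (-0.12). *Cd163* (0.54, adjusted p = 0.602 from limma) and *Pf4* (1.46, adjusted p = 0.393) missed the threshold. So did *Stab1* (0.47, adjusted p = 0.407 from limma) and *Cbr2* (3.85, adjusted p = 0.111), both named after their values had been seen. *Cbr2*, at 0.276 CPM after PBS and 2.999 CPM after DT, passed the filter only through DT. The monocyte gene *Ccr2* did not pass the filter, at 0.329 CPM after PBS and 0.116 CPM after DT. *Plac8* had no read in any library. Macrophages are known to express *Icam1*, *Bcl3*, *Rel* and *Relb*, and the part of these cells in the values above was not tested. Endothelial cells are known to express *Icam1*, too. The 12 endothelial markers summed to 959.4 to 1506 CPM after PBS and to 795.4 to 965.6 CPM after DT, and all 12 had fold changes below 0, from -0.59 for *Kdr* to -0.13 for *Vwf*, with 0 past the threshold with limma, 5 lower at an unadjusted p under 0.05 and 2 called lower by edgeR's exact test and by DESeq2. Microglia markers summed to 269.2 to 306.9 CPM after PBS and to 152 to 172.8 CPM after DT. *Itgam*, which encodes a chain of the *Icam1* partner Mac-1 and the CD11b antigen of the removal step, fell from 15.9 to 1.80 CPM (log2 fold change -3.09, adjusted p = 0.000704 from limma). Oligodendrocyte lineage markers summed to 581.2 to 694.4 CPM after PBS and to 471 to 505.1 CPM after DT, with 0 of 9 called by limma, 3 lower at an unadjusted p under 0.05 and 1 called lower by edgeR's exact test and by DESeq2. All 9 ependymal and choroid plexus markers had fold changes above 0, with a median of 0.66 on the log2 scale and overlapping sums. Of these 9, 0 were called by limma or edgeR's exact test, 1 was called higher by DESeq2 and 7 were higher at an unadjusted p under 0.05. The part of these cells in the levels of the 10 genes was not tested. In such bulk libraries, fewer cells of a type and less RNA per cell cannot be told apart.

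Warm dissociation is known to induce *Nfkbia*, *Nfkbiz* and *Tnfaip3* along with immediate early genes. The 16 immediate early and heat shock genes listed had 4 fold changes above 0 and 12 below, with a median of -0.18 on the log2 scale, and none passed the threshold with limma. At an unadjusted p under 0.05, 1 was higher and 4 were lower, edgeR's exact test called 1 higher, and DESeq2 called 1 higher and 1 lower. At the unadjusted p, the higher gene was *Socs3*, at 13.5 CPM after PBS and 23.6 CPM after DT. The lower genes were *Fosb* (67.8 and 45.3 CPM), *Btg2* (65.2 and 47.7 CPM), *Atf3* (11.8 and 8.18 CPM) and *Zfp36* (36.8 and 29.15 CPM). These genes were named after their values had been seen. *Fos* was at 132.5 CPM after PBS and 136.1 CPM after DT. The part of dissociation in the levels of *Nfkbia*, *Nfkbiz* and *Tnfaip3* was not tested.

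**Figure D5:**
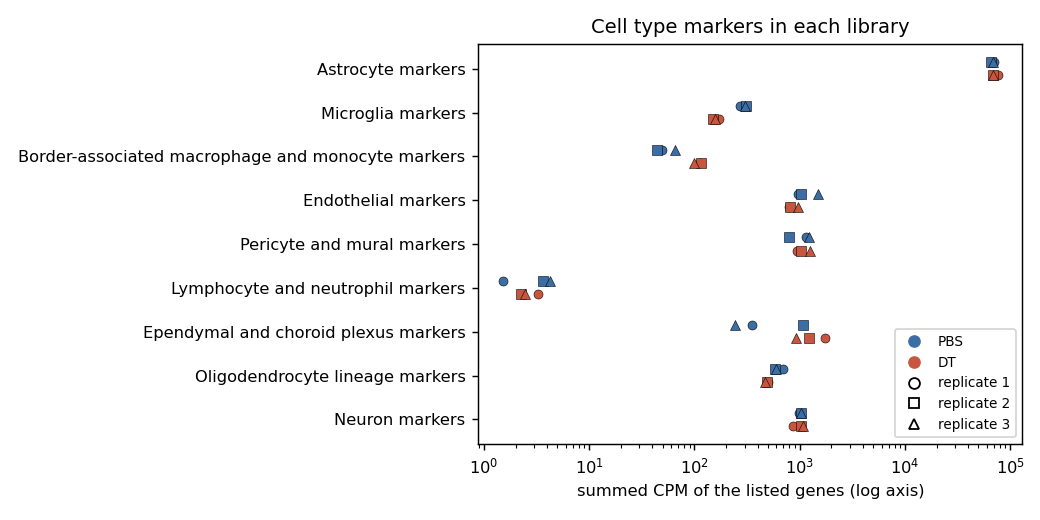
Summed CPM (log axis) of the listed marker genes of 9 cell types in each library, with PBS in blue, DT in red and a symbol for each replicate. Astrocyte sums lie between 65800 and 76250 CPM, microglia sums are lower after DT, endothelial sums overlap, and the sums of border-associated macrophage and monocyte markers are higher after DT.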

How the data were processed

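The authors trimmed reads with Trim Galore 0.5.0, mapped them to mm10 with HISAT2 2.1.0 using strand information, removed rDNA reads with bedtools 2.25.0, quantified genes with StringTie 1.3.5 and compared groups with edgeR 3.24.3 in R 3.5.1. The authors deposited TPM, and a CPM signal in which each library size had been multiplied by its TMM factor. The p-value, q-value and log fold change columns of the same tables hold the comparison made by the authors and were not used. Whole reads, within 0.002 CPM of a step, were recovered for 100% of values.

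Genes with a mean of at least 0.5 CPM were compared as log2(CPM + 0.1) with limma 3.58.1 in R 4.3.3, two-sided, with a variance trend and Benjamini-Hochberg adjustment over 15137 genes. Because the CPM were not plain, the planned counts tests on recovered reads stayed alternatives: DESeq2 1.42.0 and, from edgeR 4.0.16, the quasi-likelihood and the exact test. The other alternatives were pseudocounts, filters, TPM, quantile normalization, no variance trend, a replicate block and each library left out. The fit was tested on simulated data. The 10 genes and the lists were chosen with earlier results of these data known. Named are the 10 genes, listed genes past the threshold and the 5 genes most like *Icam1*, beside defining markers. Macrophage and monocyte markers that went the other way are also named. So are listed genes with a PBS mean under 0.5 CPM, which passed the filter only through DT. Further genes are said to be named after their values had been seen. Coordinates are those of GENCODE M21.

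Deviations from the group mean correlated at 0.115, 0.0105 and 0.118 for replicates 1, 2 and 3 of PBS and DT. Pairs of unlike numbers ran from -0.124 to 0.0115, so replicates 1 and 3 lay above all of them and replicate 2 did not. These values do not settle whether the numbers pair the libraries, and a fit with a replicate block is given below.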

Additional observations from a re-analysis of the deposited data

How the results depend on the processing

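Among 17 alternatives, the log2 fold changes of *Nfkb2*, *Rela*, *Nfkbia*, *Nfkbiz* and *Tnfaip3* kept their sign and stayed short of the threshold, as did that of *Rel* in 16. *Rel* and *Bcl3* could not be fitted at a mean of at least 2 CPM, which neither reached. *Nfkb1* turned from -0.05 to 0.0096 without DT replicate 2, within a range of -0.0864 to 0.0096 without a library. *Icam1* lost its call without the variance trend (1.08) and in 4 of 6 fits without a library, with log2 fold changes from 0.96 to 1.20. *Relb* passed the threshold at 0.93 with edgeR's exact test and with DESeq2, and *Bcl3* at 1.82 and 1.81.

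Calls among the 10 genes numbered 0 without the variance trend, 3 with the exact test and with DESeq2, and from 0 to 1 without a library. Among the other pathway genes 13 and 10 were higher and 1 and 1 lower with these 2 tools, and from 4 to 7 were higher without a library. Over all genes, 84 were higher and 24 lower, and without the variance trend 35 and 11, with the exact test 191 and 72, and with DESeq2 227 and 98. Without a library, from 39 to 72 were higher and from 9 to 20 lower, fewest without DT replicate 1 (39), DT replicate 2 (40) and PBS replicate 2 (9). Where the exact test and DESeq2 differ from limma, the cause was not tested.

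The next alternatives were chosen after seeing the data. Without a library, every DT library lay above the PBS libraries in from 8 to 9 of the 10 genes and in from 12.3% to 15% of all genes, and with TPM in 8 of the 10 and in 9.5% of all. At an unadjusted p under 0.05, from 4 to 8 of them and from 4.14% to 6.52% of all genes were higher without a library. There were 4 without DT replicate 1 (6.52% of all genes) and 5 without PBS replicate 2 (5.4%).

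A replicate block in the model gave 79 genes higher and 30 lower. *Icam1* kept its call (log2 fold change 1.08, adjusted p = 0.0375 from limma), and no call among the 10 genes changed. Depth limits *Rel* and *Bcl3* most, with 11 to 51 and 12 to 99 reads per library.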
